A study of Rattus norvegicus with 20 samples.

Results

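Chemokines are small secreted proteins that direct the movement of leukocytes along concentration gradients by binding G protein-coupled receptors on the cell surface. Ligands are named by the spacing of their first cysteines (CC, CXC, CX3C), and a few atypical receptors bind ligands without G protein signalling and clear them from the tissue. In skeletal muscle they are known for drawing monocytes to damaged fibres and, through CXCL12 and its receptors, for guiding progenitor cells. The genes described here are 10 members of this family that had a row in the deposited count table, taken by gene symbol out of 32495 named genes. They are the CC ligands Ccl2, Ccl7 and Ccl21, the CXC ligands Cxcl12, Cxcl14 and Cxcl16, the CX3C ligand Cx3cl1, the receptors Cxcr4 and Cx3cr1, and the atypical receptor Ackr3. The members are not all of the family: 48 other chemokine ligands and receptors also had a row and are given as background.

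Gastrocnemius muscle came from female Fischer 344 rats that all carried an implanted Ward colorectal carcinoma, so no group is free of tumour. TUMOUR STD rats ate a standard diet and received no chemotherapy. CHEMO STD rats ate the same diet and received a pair of cycles of CPT-11 (irinotecan) followed a day later by 5-FU (5-fluorouracil), and CHEMO FO rats received the same drugs with a diet containing fish oil (EPA and DHA), begun on the day chemotherapy began. Ribosomal RNA was depleted and total RNA sequenced from 5 TUMOUR STD, 7 CHEMO STD and 8 CHEMO FO libraries, of archived muscle collected a week after the last cycle. The labels do not name the animal behind each library, so p-values measure the spread between these samples.

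Counts on named genes ran from 3020821 to 10857477 per library, with medians of 6200550 in TUMOUR STD, 4944773 in CHEMO STD and 4634605.5 in CHEMO FO. CHEMO STD replicates 1 and 2 differed far less than other pairs in genes with at least 500 counts. Their chi-square per gene was 2.23, where sampling alone gives about 1 and 58 other within-group pairs gave 13.7 to 255. In genes of 10 to 49 counts it was 1.96, and other pairs went as low as 1.84, so low counts did not set this pair apart. These 2 replicates were summed and counted as 1 sample, which left 6 CHEMO STD samples and 19 in all. Levels are given as CPM, the count of a gene scaled to a common library size after TMM normalisation, and means carry the SD over samples. A CPM does not allow for gene length, so levels are compared between samples and not between genes. In whole muscle, fewer cells of a type and less RNA per cell cannot be told apart. The muscle markers were present in every sample, with summed levels of 11 contractile and metabolic genes between 139050 and 278000 CPM. Before any result, some samples stood apart by marker genes of other cells, 3 of them by several lists or by a wide margin. CHEMO STD 7 held lymph node and B cell transcripts, and TUMOUR STD 10 held keratinocyte transcripts. CHEMO FO 18 had the highest macrophage marker sum, with 8 of the 14 markers highest there, and the lowest muscle marker sum. CHEMO FO 16 held keratinocyte transcripts at a lower level, and the Schwann cell and myelin sum was raised in TUMOUR STD 10, CHEMO STD 7 and the sample of CHEMO STD replicates 1 and 2. The sum of 9 fibroblast markers was 14078 CPM in TUMOUR STD 12, 13485 CPM in TUMOUR STD 10 and 11845 CPM in the sample of CHEMO STD replicates 1 and 2. It was 1894 to 7750 CPM elsewhere. Values of samples that stood apart are given beside several of the genes below.

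Of the 10 members, 8 passed the filter on low counts and were tested, and none of the 8 was called in any of the 3 comparisons. A call was an unadjusted p under 0.05 with a change of at least 1.5-fold by edgeR's quasi-likelihood test. Among all 11716 genes tested, 2.38% were called in CHEMO STD versus TUMOUR STD, 1.66% in CHEMO FO versus CHEMO STD and 3.6% in CHEMO FO versus TUMOUR STD, so that a list of 8 genes would hold few or no calls at these rates. Members with an unadjusted p under 0.05 numbered 0 in each comparison, against 762, 527 and 1059 of all genes, and by edgeR no gene of the whole table passed an adjusted p of 0.05. DESeq2, run on the same samples, also called 0 members in each comparison, and passed 0, 0 and 11 genes of the whole table at an adjusted p of 0.05. No member separated any 2 groups without overlap, which 0.495% of all genes did in CHEMO STD versus TUMOUR STD, 0.0683% in CHEMO FO versus CHEMO STD and 0.324% in CHEMO FO versus TUMOUR STD. The median log2 fold change of the 8 members was 0.12, -0.0032 and -0.049 in those comparisons, beside -0.0016, -0.0060 and 0.0022 over all genes. The within-group spread was widest for Ccl21 (SD 0.99 log2 CPM), Ccl2 (0.83) and Cxcl16 (0.68), and single samples held a large share of the counts of Ccl2 and Ccl7.

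**Figure D1:**
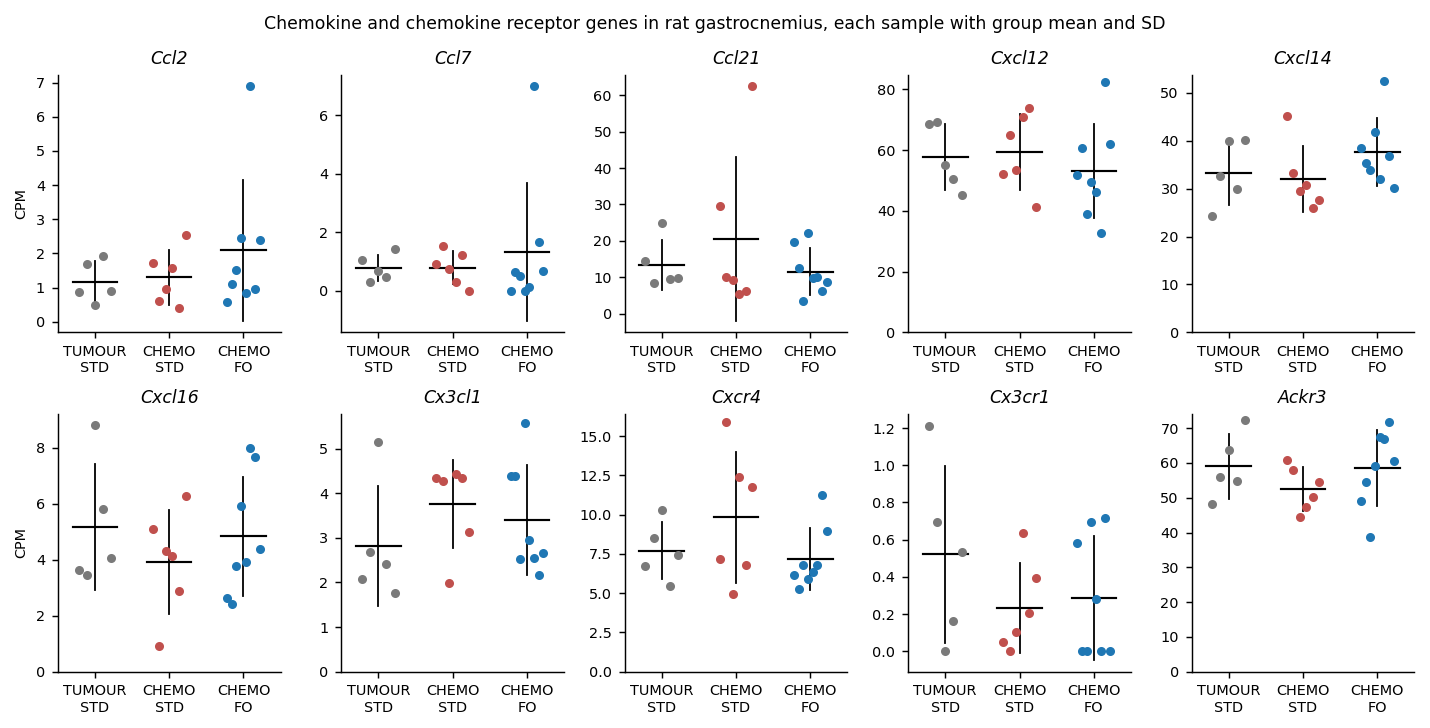
CPM (y axis, 1 panel per gene) of the 10 members in each of 5 TUMOUR STD, 6 CHEMO STD and 8 CHEMO FO samples (points), with the group mean (horizontal bar) and SD (vertical bar). Groups overlap in every panel, and single samples stand far above the rest for Ccl21 (62.4 CPM in CHEMO STD), Ccl2 (6.89 CPM in CHEMO FO) and Ccl7 (6.98 CPM in CHEMO FO).

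Among the CC ligands, Ccl21 had the widest spread. CCL21 is the ligand of CCR7, made by lymphatic endothelium and by the stroma of lymph nodes, and it brings dendritic cells and naive T cells into lymphoid tissue. In TUMOUR STD, in the order of replicates 8 to 12 used throughout, its level was 14.4, 8.44, 25.0, 9.53 and 9.92 CPM. In CHEMO STD it ran from a lowest 5.39 CPM through a median of 9.71 to a highest 62.4 CPM, and in CHEMO FO from 3.53 through 9.88 to 22.3 CPM. The 3 medians lie close together, and the upper end of CHEMO STD comes from CHEMO STD 7 (62.4 CPM) and the sample of replicates 1 and 2 (29.7 CPM), on 318 and 589 counts.

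From highest to lowest, mean Ccl21 in CHEMO STD was 20.5 ± 22.4 CPM (SD, n = 6), that in TUMOUR STD 13.5 ± 6.85 CPM (SD, n = 5) and that in CHEMO FO 11.6 ± 6.41 CPM (SD, n = 8). Its log2 fold change was 0.62 in CHEMO STD versus TUMOUR STD (standard error 0.52, 95% interval -0.45 to 1.69, adjusted p = 0.759). With fish oil it was -0.89 against CHEMO STD (standard error 0.47, interval -1.85 to 0.081, adjusted p = 0.974), and among the members this difference had the smallest unadjusted p. Against TUMOUR STD it was -0.26 (interval -1.29 to 0.76). Neighbouring groups in the order therefore did not differ beyond their spread. Without CHEMO STD 7 the mean of CHEMO STD was 12.1 ± 10.0 CPM (SD, n = 5), the log2 fold change after chemotherapy was -0.074 and that with fish oil was -0.18 (adjusted p = 0.987). The fish oil difference met the call rule in 1 of the other settings (replicates 1 and 2 kept apart, -0.97, adjusted p = 0.945) and when 1 of 6 other single samples was left out.

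CHEMO STD 7 held other lymphoid transcripts beside Ccl21. Ccr7, the CCL21 receptor, stood there at 8.83 CPM and at no more than 0.646 CPM in any other sample. Ccl19, the second ligand of CCR7, stood at 4.71 CPM against at most 0.317 CPM elsewhere, and Cxcl13, the ligand that draws B cells into follicles, at 4.12 CPM against at most 0.705 CPM. These genes were named after their values were seen. Over all 10 B cell markers the summed level was 119 CPM there and 1.54 to 8.92 CPM elsewhere, with 9 of the 10 highest in that sample and none at 0. Of 6 lymph node stroma markers, 4 were highest there (summed level 82.1 CPM, elsewhere 0 to 0.806 CPM), among them Glycam1, a mucin of lymph node venules, at 30.8 CPM, and 2 (Madcam1 and Fdcsp) had no count. Besides Glycam1, that sum is made up of Ccl19 and Cxcl13, given above, and Cr2 (42.4 CPM). Cr2 also counts among the 10 B cell markers, so the sums overlap. Glycam1 had no count in the other samples, where a count of 0 allows up to 0.150 to 0.993 CPM, counting error only. The summed level of 11 T cell markers was 63.0 CPM there and 14.9 to 30.5 CPM elsewhere.

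**Figure D2:**
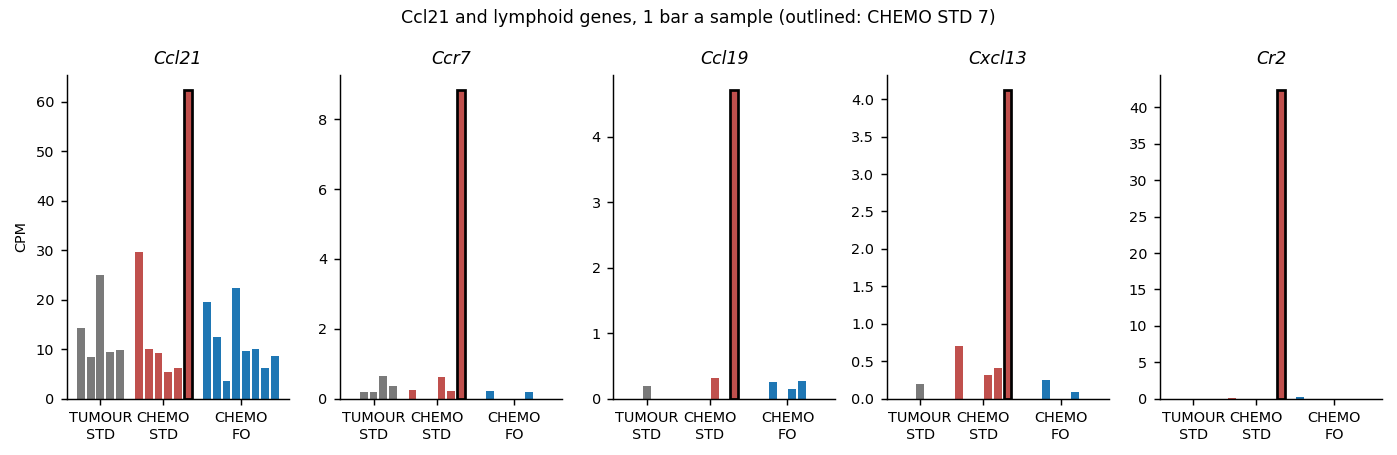
CPM (y axis) of Ccl21, Ccr7, Ccl19, Cxcl13 and the B cell and follicular dendritic cell gene Cr2, with 1 bar per sample (grey TUMOUR STD, red CHEMO STD, blue CHEMO FO), and CHEMO STD 7 outlined. That sample is the highest for each gene (Cr2 at 42.4 CPM), while Ccl21 alone is present in all the other samples (at least 3.53 CPM).

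Unlike those genes, Ccl21 was present in every sample, with 14 to 589 counts. The summed level of 6 lymphatic endothelial markers, none at 0 in any sample, was 97.7 CPM in the sample of CHEMO STD replicates 1 and 2, 84.5 CPM in TUMOUR STD 10, 73.5 CPM in CHEMO FO 16 and 70.9 CPM in CHEMO STD 7. These are the 4 samples with the highest Ccl21, and the sum ran from 40.3 to 62.6 CPM in the others except CHEMO FO 18. There it was 171 CPM, of which Lyve1 and Pdpn made up 80.0 and 66.9 CPM, with Prox1 at its lowest and Ccl21 at 10.1 CPM. The sum of 10 Schwann cell and myelin markers moved with Ccl21 too, at 495 CPM in TUMOUR STD 10, 474 CPM in the sample of replicates 1 and 2 and 323 CPM in CHEMO STD 7, against 87.6 to 165 CPM in the other samples. These are the 3 samples with the highest Ccl21. The part of lymph node, lymphatic vessel and nerve RNA in the level of Ccl21 was not tested. The genes whose levels followed Ccl21 most closely over the 19 samples, after removing group means, were the membrane linker Ezr (r = 0.91, rho = 0.90, and r = 0.87 without the 2 samples farthest from the median), the proton channel Hvcn1 (r = 0.87, rho = 0.81) and Esyt1 (r = 0.87, rho = 0.85), values given as description.

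Ccl2 and Ccl7, which lie next to each other on chromosome 10 in RefSeq's GRCr8 annotation, encode the monocyte attractants MCP-1 and MCP-3, both of which act on inflammatory monocytes. Both were close to the limit of detection and both were highest in the same sample. In TUMOUR STD the level of Ccl2 was 0.867, 1.69, 0.485, 1.94 and 0.885 CPM. In CHEMO STD it ran from 0.413 through a median of 1.27 to 2.55 CPM, and in CHEMO FO from 0.584 through 1.31 to 6.89 CPM. The medians of both chemotherapy groups are alike, and the highest value is that of CHEMO FO 18, which gave 76 of the 233 counts of the gene in the series (32.6%).

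The mean of Ccl2 in CHEMO FO was 2.09 ± 2.06 CPM (SD, n = 8), that in CHEMO STD 1.30 ± 0.801 CPM (SD, n = 6) and that in TUMOUR STD 1.17 ± 0.612 CPM (SD, n = 5), and neighbours in this order did not differ beyond their spread. Its log2 fold change was 0.20 after chemotherapy on the standard diet (interval -1.01 to 1.40), 0.75 in CHEMO FO versus CHEMO STD (standard error 0.50, interval -0.29 to 1.80, adjusted p = 0.974) and 0.95 in CHEMO FO versus TUMOUR STD (standard error 0.53, interval -0.15 to 2.05, adjusted p = 0.580). Ccl2 passed the filter by reaching about 1.84 CPM in 5 samples, CHEMO FO 18 among them, and no longer passed it without that sample. Without that sample and without a filter the log2 fold changes with fish oil were 0.074 against CHEMO STD and 0.26 against TUMOUR STD (adjusted p = 1.00 and 0.921), and the mean of CHEMO FO was 1.41 ± 0.748 CPM (SD, n = 7).

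Ccl7 did not pass the filter. In TUMOUR STD its level was 1.04, 0.298, 0.679, 0.484 and 1.42 CPM, on 3 to 8 counts a sample. In CHEMO STD it ran from 0 through 0.821 to 1.53 CPM and in CHEMO FO from 0 through 0.582 to 6.98 CPM. The highest value was again CHEMO FO 18, with 77 of the 159 counts of the gene (48.4%), and no other sample passed 1.68 CPM. The gene had no count in CHEMO STD 7, CHEMO FO 13 and CHEMO FO 16, where a count of 0 allows up to 0.607, 0.823 and 0.988 CPM. In two-sided exact permutation tests of mean log2 CPM the difference was -0.12 in CHEMO STD versus TUMOUR STD (p = 0.823), -0.052 in CHEMO FO versus CHEMO STD (p = 0.947) and -0.17 in CHEMO FO versus TUMOUR STD (p = 0.828). In the comparisons of CHEMO FO the sign was opposite to that of edgeR's fold change without a filter (0.95 and 1.01, standard errors 0.74 and 0.78), and without CHEMO FO 18 the latter were -0.54 and -0.49.

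CHEMO FO 18 was also the highest sample for other chemokines, which were named after their values were seen. Cxcl1, a neutrophil attractant, stood there at 3.54 CPM and at no more than 0.734 CPM elsewhere. Ccl20, the CCR6 ligand, stood at 1.72 CPM (19 counts), with 2 counts in the sample of CHEMO STD replicates 1 and 2 and none elsewhere. The interferon-induced ligand Cxcl9 stood at 55.7 CPM against at most 29.8 CPM. In the same sample the growth regulator Myc was at 28.3 CPM and the basic leucine zipper gene Maff at 47.5 CPM, against at most 9.41 and 8.01 CPM elsewhere, and Il6 had 12 counts. Their lists as a whole did not stand apart. Of 16 early response genes 4 were highest there, and their sum was 496 CPM (elsewhere 196 to 543 CPM). Of 11 NF-kB and cytokine genes 1 was highest there, their sum was 164 CPM (elsewhere 111 to 183 CPM), and Tnf had no count.

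**Figure D3:**
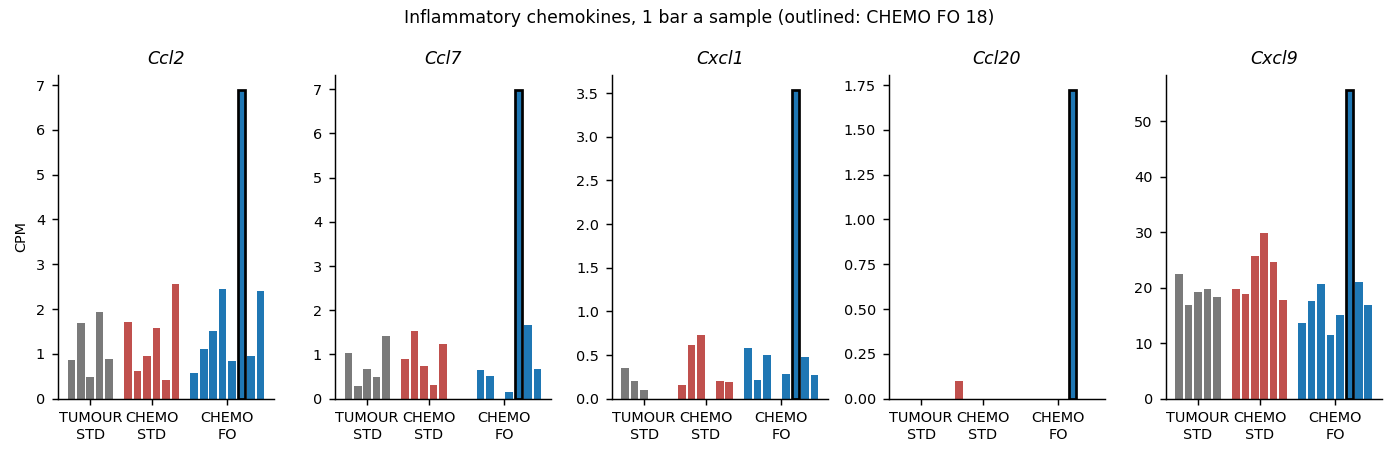
CPM (y axis) of Ccl2, Ccl7, Cxcl1, Ccl20 and Cxcl9, with 1 bar per sample (grey TUMOUR STD, red CHEMO STD, blue CHEMO FO), and CHEMO FO 18 outlined. All 5 genes are highest in that sample, at 6.89, 6.98, 3.54, 1.72 and 55.7 CPM.

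The macrophage marker sum in CHEMO FO 18 was 830 CPM over 14 genes, 8 of them highest there and none at 0, against 238 to 553 CPM in the other samples. The resident macrophage scavenger receptor Cd163 and the macrophage marker Mrc1 stood at 272 and 167 CPM there, against at most 65.3 and 68.0 CPM elsewhere. The macrophage receptor Csf1r, at 54.2 CPM, was within the range of the others. Adgre1, at 7.53 CPM, lay near its lowest level of all samples (7.05 CPM). The lymphatic endothelial markers Lyve1 and Pdpn were highest there too (80.0 and 66.9 CPM), but Prox1, the transcription factor that defines lymphatic endothelium, was at its lowest (4.17 CPM). The summed level of 8 satellite cell markers was 309 CPM there and 109 to 155 CPM elsewhere, with 3 of the 8 highest there. The summed muscle markers were at 139050 CPM there and at 196580 CPM or more elsewhere. Whether these shifts have a part in Ccl2 and Ccl7 was not tested. Over the 19 samples the genes most like Ccl2 were Cipc, a circadian regulator (r = 0.80), Hdgf (r = 0.79) and Lyve1 (r = 0.78), which fell to 0.56, 0.59 and 0.61 without CHEMO FO 18 and CHEMO STD 7.

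Because Ccl7, Cxcl1 and Ccl20 were highest in the same sample, the 250 bases before each start are shown, with those of Ccl21, which was not raised there, for contrast. These genes were chosen after their values were seen, and Ccl2, Cxcl9, Ccr1 and Cxcl14, also highest there, are not shown. The stretches shown are RefSeq sequences on build GRCr8, which is not the build of the counts. They lie at chr10:67513845-67514094 (plus strand) for Ccl7, chr14:17479322-17479571 (minus strand) for Cxcl1, chr9:91836909-91837158 (plus strand) for Ccl20 and chr5:61777516-61777765 (minus strand) for Ccl21, all upstream of the gene. Capitals mark matches on either strand to AP-1 (TGANTCA), the NF-kB consensus, the GC box (GGGCGG) and the TATA box (TATAAA), with overlapping matches run together.

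Ccl7: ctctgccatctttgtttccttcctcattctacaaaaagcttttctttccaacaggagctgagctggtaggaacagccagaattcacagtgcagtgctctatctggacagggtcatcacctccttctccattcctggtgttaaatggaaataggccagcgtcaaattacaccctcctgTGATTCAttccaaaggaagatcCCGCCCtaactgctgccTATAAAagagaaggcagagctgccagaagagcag
Cxcl1: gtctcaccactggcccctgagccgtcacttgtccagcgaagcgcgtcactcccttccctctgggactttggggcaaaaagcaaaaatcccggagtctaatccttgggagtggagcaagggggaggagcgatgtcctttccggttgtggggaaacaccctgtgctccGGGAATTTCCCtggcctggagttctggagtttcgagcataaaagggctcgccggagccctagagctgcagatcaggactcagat
Ccl20: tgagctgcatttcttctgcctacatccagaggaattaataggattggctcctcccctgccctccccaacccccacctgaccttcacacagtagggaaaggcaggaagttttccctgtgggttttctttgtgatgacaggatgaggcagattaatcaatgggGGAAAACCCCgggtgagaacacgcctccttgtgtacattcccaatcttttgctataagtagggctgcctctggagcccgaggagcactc
Ccl21: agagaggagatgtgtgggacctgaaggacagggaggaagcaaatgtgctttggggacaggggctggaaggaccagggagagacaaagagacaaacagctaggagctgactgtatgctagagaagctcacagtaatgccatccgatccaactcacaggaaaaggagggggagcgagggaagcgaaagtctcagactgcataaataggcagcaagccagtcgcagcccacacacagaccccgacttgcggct

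The Ccl7 stretch held 1 AP-1 match that starts 73 bases before the start, 1 GC box and 1 TATA box. The NF-kB consensus was matched in the stretches of Cxcl1 (as 2 overlapping matches) and Ccl20 and not in that of Ccl7, and the Ccl21 stretch held none of the 4 motifs. Promoters were at hand for 9 of the 10 members, all but Ccl2. AP-1 was matched in 2 of the 9 (Ccl7 and Cxcl14) and in 6.34% of all 33469 promoter stretches of the same length, NF-kB in none of the 9 and in 3.54%, the GC box in 5 of the 9 and in 30.5%, and the TATA box in 4 of the 9 and in 12.9%. These are matches of letters and describe the sequence only.

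The homeostatic ligand CXCL12 holds CXCR4-bearing stem and progenitor cells in their niches, and ACKR3 scavenges it. All 3 genes were detected in every sample, with a within-group SD of 0.35 log2 CPM for Cxcl12, 0.44 for Cxcr4 and 0.24 for Ackr3. Cxcl12 was at 68.5, 69.3, 55.1, 50.4 and 45.3 CPM in TUMOUR STD, at 41.2 through a median of 59.3 to 73.9 CPM in CHEMO STD, and at 32.7 through 50.6 to 82.4 CPM in CHEMO FO. The groups overlapped over most of their ranges, and CHEMO FO held both the lowest sample (CHEMO FO 18) and the highest (CHEMO FO 19). The order of the Cxcl12 means was CHEMO STD (59.4 ± 12.6 CPM, SD, n = 6), TUMOUR STD (57.7 ± 10.8 CPM, SD, n = 5) and CHEMO FO (53.0 ± 15.5 CPM, SD, n = 8). The 95% interval of its log2 fold change ran from -0.37 to 0.45 after chemotherapy and from -0.53 to 0.21 with fish oil, so changes of Cxcl12 beyond 1.36-fold higher after chemotherapy, or of a factor below 0.693 with fish oil, lay outside those intervals. Without CHEMO FO 18 the fish oil value of Cxcl12 went from -0.16 to -0.075.

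Ackr3 was the steadiest member, with a within-group SD of 0.24 log2 CPM, beside 0.36 for the median of all genes tested. It was at 48.2, 55.9, 63.8, 54.9 and 72.4 CPM in TUMOUR STD, at 44.5 through 52.4 to 60.9 CPM in CHEMO STD and at 38.6 through 59.8 to 71.6 CPM in CHEMO FO. The order of the means was TUMOUR STD (59.0 ± 9.30 CPM, SD, n = 5), CHEMO FO (58.5 ± 10.9 CPM, SD, n = 8) and CHEMO STD (52.6 ± 6.37 CPM, SD, n = 6), and neighbours did not differ beyond their spread. Its log2 fold change was -0.17 after chemotherapy (interval -0.47 to 0.14, adjusted p = 0.768) and 0.15 with fish oil (interval -0.12 to 0.43, adjusted p = 0.974). CHEMO FO versus TUMOUR STD gave -0.011 (interval -0.30 to 0.28).

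Cxcr4, the signalling receptor of CXCL12, was at 6.76, 8.54, 10.3, 5.49 and 7.44 CPM in TUMOUR STD. In CHEMO STD it ran from 4.93 through 9.49 to 15.9 CPM and in CHEMO FO from 5.27 through 6.56 to 11.3 CPM. CHEMO STD split into 3 samples at 11.8 to 15.9 CPM (CHEMO STD 3, 5 and 7) and 3 at 4.93 to 7.20 CPM, and gave the highest mean (9.83 ± 4.17 CPM, SD, n = 6), before TUMOUR STD (7.70 ± 1.81 CPM, SD, n = 5) and CHEMO FO (7.18 ± 1.97 CPM, SD, n = 8). The log2 fold change was 0.29 after chemotherapy (interval -0.25 to 0.84, adjusted p = 0.770) and -0.40 with fish oil (standard error 0.24, interval -0.90 to 0.099, adjusted p = 0.974). Neither passed the test, and without CHEMO STD 3 they were 0.12 and -0.22.

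Across the 19 samples with group means removed, 3 pairs of these genes could be tested. Cxcl12 and Cxcr4 gave Pearson's r = 0.27 (permutation p = 0.279, adjusted 0.418; Spearman's rho = 0.19, permutation p = 0.466, adjusted 0.699), and r = 0.11 without the 2 samples farthest from the median of Cxcl12. For Cxcl12 and Ackr3 r was 0.0058 (permutation p = 0.983, adjusted 0.983; rho = -0.086, permutation p = 0.741, adjusted 0.741), and -0.081 without those 2 samples. Cxcr4 and Ackr3 gave r = 0.36 (permutation p = 0.111, adjusted 0.332; rho = 0.40, permutation p = 0.0905, adjusted 0.271), and 0.42 without the 2 samples farthest in Cxcr4. None of the 3 relations passed the test. The other 4 pairs of the 7 listed (Ccl2 with Ccl7, Cx3cl1 with Cx3cr1, Cxcl16 with Cxcr6 and Ccl21 with Ccr7) had a gene under the filter and were not tested.

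The genes most like Cxcl12 were Slc47a1 (r = 0.84), Fhl4 (r = 0.83) and Rasl12 (r = 0.82). Those most like Cxcr4 were the sphingosine 1-phosphate receptor S1pr3 (r = 0.76), Evi2a (r = 0.74) and Acp2 (r = 0.70), and those most like Ackr3 were Gpat3 (r = 0.87), Dffb (r = 0.82) and Slc39a7 (r = 0.81). Each r is over 19 samples with group means removed, and the points share depth and tissue makeup. These genes were picked for the highest r among all genes tested, which by itself favours a high r. Without the 2 samples farthest from the member's median, r was 0.75, 0.81 and 0.68 for the genes named for Cxcl12. It was 0.83, 0.69 and 0.59 for those of Cxcr4, and 0.78, 0.82 and 0.74 for those of Ackr3.

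Cxcl14, a ligand made by epithelia and other resting tissues, was steady as well (within-group SD 0.27 log2 CPM). It was at 24.3, 32.7, 39.8, 29.9 and 40.2 CPM in TUMOUR STD, from 26.0 through 30.1 to 45.1 CPM in CHEMO STD and from 30.2 through 36.1 to 52.4 CPM in CHEMO FO. The highest sample was CHEMO FO 18 and the next the sum of CHEMO STD replicates 1 and 2. Mean levels were 37.6 ± 7.01 CPM (SD, n = 8) in CHEMO FO, 33.4 ± 6.78 CPM (SD, n = 5) without chemotherapy and 32.1 ± 6.88 CPM (SD, n = 6) with chemotherapy on the standard diet. With fish oil its log2 fold change was 0.22 (interval -0.089 to 0.54, adjusted p = 0.974) and after chemotherapy -0.052 (interval -0.40 to 0.30). Without CHEMO FO 18 the fish oil value was 0.13 and the CHEMO FO mean 35.5 ± 3.97 CPM (SD, n = 7). The genes most like it were the endocytic receptor Lrp1 (r = 0.92, rho = 0.92), the TNF receptor Tnfrsf1a (r = 0.88, rho = 0.77) and the neuregulin receptor Erbb3 (r = 0.87, rho = 0.85). Cxcl14 was at 40.2, 39.8 and 45.1 CPM in the samples with the highest fibroblast sums (TUMOUR STD 12, TUMOUR STD 10 and CHEMO STD replicates 1 and 2). CHEMO FO 18, the highest for Cxcl14, had the lowest fibroblast sum (1894 CPM). The part of fibroblast RNA in the level of Cxcl14 was not tested.

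The remaining ligands, Cxcl16 and Cx3cl1, are made as membrane-bound proteins that ADAM proteases can shed, and bind CXCR6 and CX3CR1. Cx3cl1 (fractalkine) was at 2.08, 2.68, 5.14, 2.42 and 1.77 CPM in TUMOUR STD, from 1.99 through 4.30 to 4.44 CPM in CHEMO STD and from 2.16 through 2.81 to 5.57 CPM in CHEMO FO. In TUMOUR STD 4 samples lay at or below 2.68 CPM, while 4 of the 6 CHEMO STD samples lay between 4.27 and 4.44 CPM. The order of the means was CHEMO STD (3.75 ± 0.989 CPM, SD, n = 6), CHEMO FO (3.40 ± 1.22 CPM, SD, n = 8) and TUMOUR STD (2.82 ± 1.34 CPM, SD, n = 5). The log2 fold change after chemotherapy was 0.36 (standard error 0.31, interval -0.29 to 1.01, adjusted p = 0.768).

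That difference turned on TUMOUR STD 10. Without it the log2 fold change of Cx3cl1 was 0.71 (standard error 0.31, adjusted p = 0.999), which met the call rule, and with CHEMO STD 7 and CHEMO FO 18 left out as well it was 0.75 (adjusted p = 0.982). In CHEMO FO versus TUMOUR STD it went from 0.19 to 0.54 (adjusted p = 0.859) without that sample. TUMOUR STD 10 held keratinocyte transcripts, with a summed level over 9 markers of 544 CPM and none at 0, and CHEMO FO 16, the sample with the highest Cx3cl1 (5.57 CPM), had the next highest sum, 115 CPM. The other samples lay between 2.44 and 8.05 CPM. The sum of 10 endothelial markers was also highest in TUMOUR STD 10, at 422 CPM against 262 to 373 CPM elsewhere, with 318 CPM in CHEMO FO 16. Fibroblast and Schwann cell sums were raised in TUMOUR STD 10 as well. The parts of skin RNA and of these other cells in the level of Cx3cl1 were not tested. The genes most like Cx3cl1 were Mtcl1 (r = 0.83), Cc2d1a (r = 0.81) and Aldh7a1 (r = 0.79), which went to 0.86, 0.72 and 0.61 without CHEMO FO 16 and TUMOUR STD 10.

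Cxcl16 was at 3.64, 3.47, 8.82, 5.81 and 4.07 CPM in TUMOUR STD, from 0.916 through 4.21 to 6.28 CPM in CHEMO STD and from 2.42 through 4.17 to 7.98 CPM in CHEMO FO. TUMOUR STD 10 was again the highest, and the lowest was CHEMO STD 3, on 3 counts. The order of the means was TUMOUR STD (5.16 ± 2.25 CPM, SD, n = 5), CHEMO FO (4.84 ± 2.13 CPM, SD, n = 8) and CHEMO STD (3.93 ± 1.86 CPM, SD, n = 6). Its log2 fold change was -0.35 after chemotherapy (interval -1.10 to 0.39, adjusted p = 0.799) and 0.27 with fish oil (interval -0.42 to 0.95), and the former was -0.055 without TUMOUR STD 10. The fish oil value was 0.093 without CHEMO FO 18, 0.10 without CHEMO STD 3 and 0.42 without CHEMO STD 7. The genes most like Cxcl16 were the flippase gene Atp10d (r = 0.86), the adhesion gene Nectin2 (r = 0.81) and Pef1 (r = 0.81).

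Cx3cr1, the fractalkine receptor of monocytes, macrophages and natural killer cells, had 34 counts in the whole series and at most 7 in a sample, so differences between groups were not detectable at this depth. It was at 1.21, 0.695, 0, 0.161 and 0.531 CPM in TUMOUR STD, at no more than 0.635 CPM in CHEMO STD and at no more than 0.719 CPM in CHEMO FO, with no count in 1, 1 and 4 samples. In samples without a count, a count of 0 allows up to 0.276 to 0.924 CPM. By the two-sided exact permutation test the difference in mean log2 CPM was -0.52 in CHEMO STD versus TUMOUR STD (p = 0.288), 0.041 in CHEMO FO versus CHEMO STD (p = 0.923) and -0.48 in CHEMO FO versus TUMOUR STD (p = 0.336). The macrophage markers Csf1r and Adgre1 were detected in every sample by contrast, at 44.0 CPM or more and 7.05 CPM or more.

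**Figure D4:**
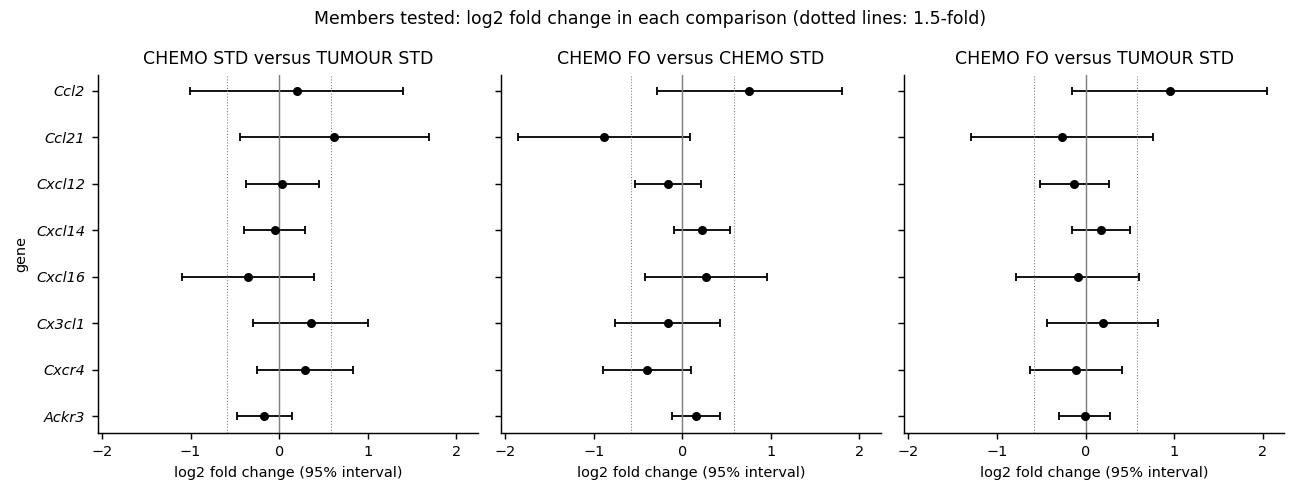
Log2 fold change (x axis) of the 8 members tested (y axis) in each comparison, as points with 95% intervals, with dotted lines at 1.5-fold in either direction. Every interval includes 0, from the narrow ones of Ackr3 and Cxcl14 to the wide ones of Ccl2 and Ccl21. Intervals of Ccl2, Ccl21, Cxcl16, Cx3cl1 and Cxcr4 reach beyond 1.5-fold in at least 1 comparison.

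The rest of the chemokine family was sparse in this muscle. Of 29 other ligands with a row, 4 passed the filter (Ccl6, Ccl24, Cxcl9 and Pf4), and 5 (Ccl25, Ccl26, Cxcl3, Cxcl17 and Ppbp) had no count in any sample, which over all samples together allows up to 0.0235 CPM. Of 19 other receptors, 5 passed, among them Ccr1, Ackr2, Ackr4 and Ccrl2, and 3 (Ccr1l1, Ccr4 and Cxcr1) had no count. Ccr2, the receptor of CCL2 and CCL7, and Ackr1 were not analysed here. None of the 9 tested genes was called in any comparison. The median log2 fold change of the 9 was 0.23 after chemotherapy and -0.33 with fish oil, with 6 of 9 higher in the first and 8 of 9 lower in the second, and these comparisons share the CHEMO STD samples. Of all 11716 genes tested, 5828 were higher in the first and 6016 lower in the second. The direction counts of the 9 are given as description.

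Ccl6, a macrophage CC ligand, passed the p threshold in 2 comparisons without reaching the fold. Its level was 9.71, 11.9, 12.5, 11.9 and 14.7 CPM in TUMOUR STD, from 12.1 through 18.995 to 20.02 CPM in CHEMO STD and from 9.64 through 12.8 to 19.4 CPM in CHEMO FO. In CHEMO STD 5 of the 6 samples lay at 18.02 CPM or above, higher than each TUMOUR STD sample, and CHEMO STD 5 lay at 12.1 CPM. The log2 fold change was 0.57 after chemotherapy (standard error 0.18, interval 0.20 to 0.94, adjusted p = 0.719) and -0.43 with fish oil (standard error 0.16, interval -0.76 to -0.11, adjusted p = 0.974), both with an unadjusted p under 0.05 and both short of 1.5-fold. Without CHEMO FO 18 the second was -0.54 (adjusted p = 0.889). It met the call rule after chemotherapy on library totals (0.59, adjusted p = 0.824) and without CHEMO STD 5 or TUMOUR STD 12 (0.65 each). Pf4, the platelet chemokine, named after its values were seen, reached the fold with fish oil and not the p threshold (-0.59, standard error 0.29, interval -1.19 to 0.015, adjusted p = 0.974), and it met the call rule there in 7 alternatives, among them without CHEMO STD 7 (-0.66).

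Of the other abundant family members, Cxcl9 had a mean in TUMOUR STD of 19.4 ± 2.05 CPM (SD, n = 5), in CHEMO STD of 22.8 ± 4.67 CPM (SD, n = 6) and in CHEMO FO of 21.5 ± 14.2 CPM (SD, n = 8), the last 16.7 ± 3.51 CPM without CHEMO FO 18 (SD, n = 7). The eosinophil attractant Ccl24 had means of 12.0 ± 4.90 (SD, n = 5), 11.3 ± 4.64 (SD, n = 6) and 8.92 ± 3.33 CPM (SD, n = 8) in those groups. The myeloid receptor Ccr1 had means of 3.77 ± 0.655, 5.40 ± 0.741 and 5.59 ± 4.73 CPM, and 4.03 ± 1.85 CPM in CHEMO FO without CHEMO FO 18, where it was at 16.5 CPM. Means of Ackr4, the scavenger of CCL19 and CCL21, were 3.09 ± 1.79, 3.22 ± 1.44 and 2.34 ± 1.42 CPM.

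Among 25 tested genes that act downstream of chemokine receptors or process their ligands, 1 was called after chemotherapy, 2 with fish oil and 1 in CHEMO FO versus TUMOUR STD. Over all genes tested, 2.38%, 1.66% and 3.6% were called in those comparisons, and a list of 25 genes would hold few or no calls at these rates. The calls rest on the unadjusted p, and their number is not read as a result about the list. Rac2, the haematopoietic GTPase, rose after chemotherapy (log2 fold change 1.16, standard error 0.50, adjusted p = 0.719) and fell by 1.13 with fish oil (adjusted p = 0.974). CHEMO STD 7 stood at 22.4 CPM, and without it the values were 0.17 (adjusted p = 0.904) and -0.14 (adjusted p = 0.987). The kinase Ptk2b fell by 0.79 with fish oil (adjusted p = 0.974), and without CHEMO STD 7 its value was -0.46 (adjusted p = 0.985). Elmo1, an activator of Rac, fell by 0.59 in CHEMO FO versus TUMOUR STD (adjusted p = 0.503), and without TUMOUR STD 10 it was -0.35 (adjusted p = 0.860). Of the genes in the marker and context lists, those called with the smallest p were the smooth muscle genes Myh11 (-0.93) and Acta2 (-1.11) and the phosphatase Dusp1 (-0.88) after chemotherapy. With fish oil they were the early response genes Fos (1.23) and Ccn1 (0.93) and the macrophage lysozyme Lyz2 (-0.80). In CHEMO FO versus TUMOUR STD they were Myh11 (-0.91), Acta2 (-0.89) and the desmosome gene Dsp (-2.66), the last a keratinocyte marker high in TUMOUR STD 10. These genes do not stand for their lists. In TUMOUR STD, CHEMO STD and CHEMO FO the median sum of 10 smooth muscle and pericyte markers was 4093, 4100 and 5312 CPM. That of 14 macrophage markers was 289, 361 and 357 CPM, and that of 16 early response genes was 444, 288 and 442 CPM.

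**Figure D5:**
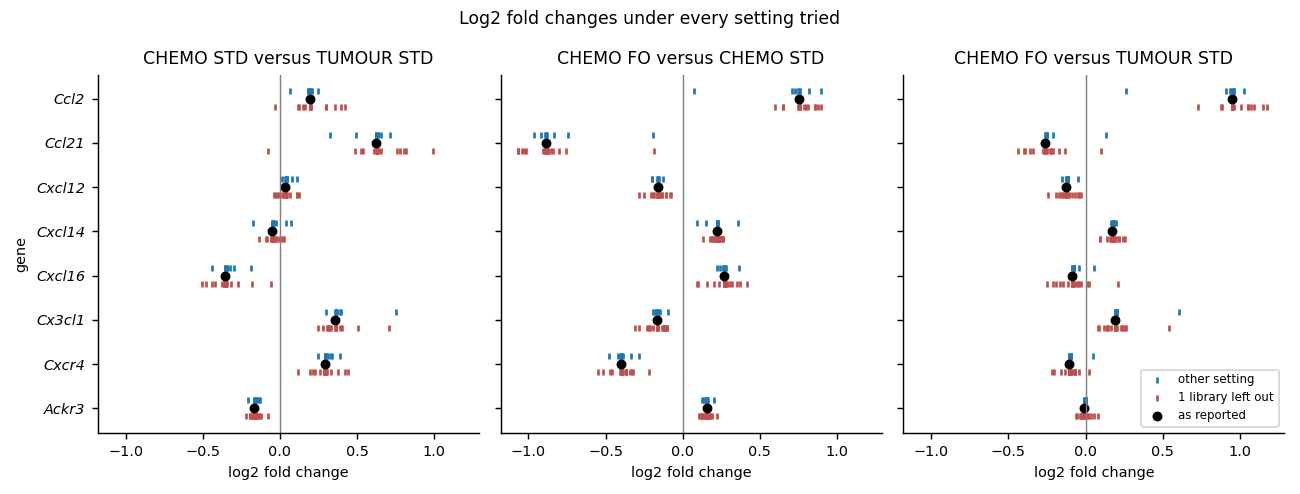
Log2 fold change (x axis) of each member tested (y axis) as reported (black), with 1 library left out (red ticks) and under the other settings (blue ticks). Ticks far from the black points include Ccl21 without CHEMO STD 7 (-0.18 in CHEMO FO versus CHEMO STD), Ccl2 without CHEMO FO 18 and without a filter (0.074 in the same comparison), and Cx3cl1 and Ccl21 without TUMOUR STD 10 (0.71 and 0.99 in CHEMO STD versus TUMOUR STD).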

How the data were processed

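Total RNA of rat gastrocnemius was sequenced as rRNA-depleted stranded libraries. Per the labels and the study's methods, the authors trimmed reads with Trim Galore 0.4.1, aligned them to Rnor 6 with TopHat2 2.0.10 and Bowtie2, and used Partek Flow with an Ensembl annotation. The deposited values are raw counts per gene. For the counter and its use of strand, nothing is given in the sources used here. Rows without a gene name (388, 0.102% to 0.272% of counts) were left out.

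The test was that of edgeR 4.0.16 under R 4.3.3 (filterByExpr with minimum count 10 and minimum total 15, TMM, quasi-likelihood test, the 3 groups in 1 fit, CHEMO STD replicates 1 and 2 summed), adjusted by Benjamini-Hochberg over all genes tested. Standard errors came from the fold change and the F statistic, and intervals from the t distribution at 95%. Log2 CPM used a prior count of 2. Members under the filter were tested by exact permutation, 6 tests in all, and 3 pairs of genes by 100000 permutations within groups. Sequences were read from RefSeq promoters. The fit was tested on simulated data.

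Named genes were the members, the 3 most abundant of the other ligands and of the other receptors (no other family gene was called, and 1 item is not reported here), every signalling gene called, up to 3 context genes a comparison by smallest p, and the 3 genes most like each member tested. The members and lists were chosen with earlier results of these data known. Alternatives were DESeq2 1.42.0, RLE factors, library totals, no filter, a filter of a mean of 10 counts, only the 2 groups compared, replicates 1 and 2 kept apart or both left out, and each library left out. Leaving out CHEMO STD 7, TUMOUR STD 10 and CHEMO FO 18 together, and CHEMO FO 18 without a filter, were chosen after seeing the data.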

Additional observations from a re-analysis of the deposited data

Results flagged for a closer look

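Within groups of 5 to 8 samples, a sample was singled out where its gap to the nearest other exceeded Dixon's 95% critical share of the range. Of 45 groups of values searched, over the 10 members and 5 other family genes, 7 had such a sample. Dixon's rate of 1 in 20 holds for independent, normally distributed values. The groups searched share the same samples and some values lie near the floor, so that rate is not set against the 7. CHEMO FO 18 was the high sample in 4 of the 7, for Ccl2 (6.89 CPM), Ccl7 (6.98 CPM), Cxcl9 (55.7 CPM) and Ccr1 (16.5 CPM). TUMOUR STD 10 was the high sample for Cx3cl1 (5.14 CPM) and for Ackr4 (6.20 CPM). A low sample stood apart for Ccl6 in CHEMO STD 5 (12.1 CPM). Ccl21 in CHEMO STD 7 (62.4 CPM) was not singled out by this rule, since the sample of replicates 1 and 2 lay between it and the others.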

How the results depend on the processing

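No paired analysis was made, because the study assigned rats at random to separate groups and the labels pair no samples. In CHEMO STD versus TUMOUR STD, 0 members became 1 (Cx3cl1) without TUMOUR STD 10 and 1 with CHEMO STD 7, TUMOUR STD 10 and CHEMO FO 18 left out together, an alternative chosen after seeing the data, and ranged from 0 to 1 with 1 library left out. The 0 calls in the other chemokine family became 1 on library totals and 7 without a filter (0 to 1 with 1 library left out). Among the 7 were Ccl19, Ccr7 and Cxcl13, of whose CHEMO STD counts 24 of 25, 45 of 53 and 21 of 38 lay in CHEMO STD 7. Without a filter, genes with few counts were tested beside the 11716. Counts called without it, here and below, are therefore over a larger set and not comparable as shares. The 279 calls of all genes became 971 without a filter, 603 with replicates 1 and 2 both left out, 170 with the 3 samples left out together, and 161 (without TUMOUR STD 10) to 529 (without TUMOUR STD 8) with 1 library left out. In CHEMO FO versus CHEMO STD, 0 members became 1 (Ccl21) with replicates 1 and 2 kept apart (0 to 1 with 1 library left out), the family's 0 became 1 on library totals, 6 without a filter and 1 with only the 2 groups compared (0 to 1 with 1 library left out), and 195 calls of all genes became 722 without a filter (153 to 238 with 1 library left out). In CHEMO FO versus TUMOUR STD, members stayed at 0 under all 29 alternatives, the family's 0 became 2 without a filter (0 to 1 with 1 library left out), and 422 calls of all genes became 1116 without a filter, 214 with the 3 samples left out, and 273 (without CHEMO FO 18) to 584 (without TUMOUR STD 11) with 1 library left out.

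Some small differences changed sign. In CHEMO STD versus TUMOUR STD the log2 fold change of Cxcl14 was 0.037 with replicates 1 and 2 apart and 0.072 with the 3 samples left out. In CHEMO FO versus TUMOUR STD, with those 3 left out, it was 0.13 for Ccl21, 0.054 for Cxcl16 and 0.050 for Cxcr4, and that of Ackr3 was 0.00052 with replicates 1 and 2 apart, 0.0023 by DESeq2, 9.7e-05 with RLE factors, 0.0014 on library totals and 0.00042 with replicates 1 and 2 left out. With replicates 1 and 2 left out, the CHEMO FO versus CHEMO STD difference was 0.024 for Ccl7 and -0.057 for Cx3cr1. The r of Cxcl12 and Ackr3 was -0.014 with replicates 1 and 2 apart.

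With 1 library left out, the log2 fold change in CHEMO STD versus TUMOUR STD ranged from -0.032 to 0.42 for Ccl2, -0.074 to 0.99 for Ccl21, -0.036 to 0.13 for Cxcl12 and -0.14 to 0.025 for Cxcl14. In CHEMO FO versus TUMOUR STD it ranged from -0.44 to 0.097 for Ccl21, -0.25 to 0.21 for Cxcl16, -0.22 to 0.024 for Cxcr4 and -0.061 to 0.080 for Ackr3. The difference in mean log2 CPM of Ccl7 ranged from -0.32 to 0.21, -0.48 to 0.18 and -0.61 to 0.055 in the 3 comparisons, and that of Cx3cr1 in CHEMO FO versus CHEMO STD from -0.10 to 0.23. The r of Cxcl12 and Ackr3 ranged from -0.25 to 0.14. The cause of these shifts was not tested. Ccl2 fell under the filter in some alternatives and has no value there. Depth limits Ccl2, Ccl7 and Cx3cr1 most, at 233, 159 and 34 counts in all.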
